A study of Rattus norvegicus with 15 samples.

Results

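Genes of proliferation and of exit from the cell cycle were followed through adipogenic and osteogenic culture of rat marrow stromal cells, with and without aspirin. The 6 genes were set by Ensembl identifier, without a cutoff on measured values, and taken from the 34480 rows of the count table: Mki67 (ENSRNOG00000028137), Top2a (ENSRNOG00000053047), Cdk1 (ENSRNOG00000000632), Pcna (ENSRNOG00000021264), Ccnd1 (ENSRNOG00000020918) and Cdkn1a (ENSRNOG00000000521). All 6 passed the filter on low counts and were among the 15543 genes tested.

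A dividing cell passes from G1 through DNA synthesis (S phase) and G2 to mitosis, driven by cyclin-dependent kinases bound to cyclins, and a cell that leaves the cycle lowers these machines and often raises a kinase inhibitor. Cyclin D1 (Ccnd1) acts in G1, Pcna in S phase, and Cdk1, Top2a and Mki67 peak from S or G2 to mitosis. Cdkn1a encodes p21, an inhibitor of cyclin-dependent kinases and a classical target of p53. Marrow stromal cells divide in growth medium, and exit from the cycle generally accompanies their differentiation to fat or bone cells.

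The cells were bone marrow mesenchymal stem cells of Sprague-Dawley rats, used at passages 3 to 6 and grown until they filled the dish. There were 5 groups of 3 libraries: untreated cells (Control), adipogenic differentiation medium without (Adi) and with aspirin (Adi_ASA), and osteogenic differentiation medium without (Ost) and with aspirin (Ost_ASA). Aspirin, or acetylsalicylic acid, inhibits the cyclooxygenases. The genotype was not stated to be altered in any group. The aspirin dose, the days in culture, and the number, age and sex of the rats are not stated in the labels, so an effect of a medium cannot be told apart from time in culture if Control cells were collected at another time. The labels do not say whether replicates came from separate rats or dishes. A p-value therefore reflects differences among libraries within groups, and these may be technical. In the edgeR test used below, this spread was pooled over all 5 groups for each gene. The labelled cell type could not be checked against its markers, because no reference table used here pairs the identifiers with symbols.

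Library totals were 18373289 to 22817858 reads. Levels are given as CPM, the read count per megaread of the library after TMM scaling, as mean ± SD of 3 libraries. CPM does not correct for gene length, so levels are compared between groups and not between genes. Differences are log2 fold changes with standard errors (SE) from edgeR's quasi-likelihood test, adjusted over all 15543 genes by the Benjamini-Hochberg method, with an adjusted p under 0.05 counted as passing. In whole cultures, fewer dividing cells and less of the RNA in each cell cannot be told apart.

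Promoter sequences are shown for members that moved together or apart in the 2 media. RefSeq (build GRCr8) gave the 250 bases before the start of 5 of the 6 members. Ccnd1 had no entry. The stretches below, written 5′ to 3′ on the strand of the gene, hold only bases before the outermost annotated start, or for Mki67, whose window lies inside its annotated gene, 30 bases. They are chr1:199952683-199952712 (minus strand) for Mki67, chr10:84473094-84473343 (minus strand) for Top2a, chr20:19265043-19265251 (plus strand) for Cdk1 and chr3:139955821-139956070 (minus strand) for Pcna. Capitals mark matches, on either strand, to the CHR element of genes of late cell cycle phases (TTTGAA or TTCGAA), to the CCAAT box (CCAAT, read as ATTGG on the other strand) or to an E2F site (TTTCGCG and its close forms TTTGGCG and also TTTCCCG or else TTTGCCG).
Mki67: aaTTTGAAccgccgttttcgTTTGAATTGG
Top2a: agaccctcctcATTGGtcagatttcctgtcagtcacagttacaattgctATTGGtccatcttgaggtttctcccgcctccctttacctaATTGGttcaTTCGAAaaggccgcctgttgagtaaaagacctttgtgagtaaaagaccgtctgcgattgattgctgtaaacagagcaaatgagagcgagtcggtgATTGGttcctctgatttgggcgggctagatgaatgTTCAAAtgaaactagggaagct
Cdk1: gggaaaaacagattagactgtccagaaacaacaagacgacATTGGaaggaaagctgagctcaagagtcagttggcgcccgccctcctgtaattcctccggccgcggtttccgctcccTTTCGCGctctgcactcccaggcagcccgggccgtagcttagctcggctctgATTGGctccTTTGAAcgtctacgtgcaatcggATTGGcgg
Pcna: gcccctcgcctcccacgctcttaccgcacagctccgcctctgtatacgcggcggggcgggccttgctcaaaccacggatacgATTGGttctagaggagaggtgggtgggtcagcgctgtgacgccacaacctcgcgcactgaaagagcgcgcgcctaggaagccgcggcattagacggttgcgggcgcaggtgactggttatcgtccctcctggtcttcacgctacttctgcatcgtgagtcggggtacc

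The full windows of 250 bases held 2 CHR matches and 4 CCAAT matches in Mki67, 2 and 4 in Top2a, and 2 and 3 in Cdk1. The Cdk1 CHR match 16 to 11 bases before the start used lies inside the annotated gene, beyond the stretch shown. In Mki67 the second CHR match and a CCAAT match share a base. Pcna held 0 CHR matches and 1 CCAAT match, and Cdkn1a had neither. Over all 33469 RefSeq promoters of this length, 17.4% held a CHR match and 34% a CCAAT match. An E2F match was present in Cdk1 (5.58% of all promoters had such a match), a GC box (GGGCGG) in Mki67, Top2a, Cdk1 and Pcna (30.5%), and a TATA box (TATAAA) in none of the 5 (12.9%). These matches describe letters, not binding.

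Mki67 encodes Ki-67, a protein that coats mitotic chromosomes and is used as a label of dividing cells. It stood at 25.3, 17.6 and 18.1 CPM in Control, and at 8.55, 9.12 and 10.1 CPM in Adi and 9.89, 8.69 and 12.95 CPM in Ost. With aspirin it was at 12.2, 12.6 and 15.2 CPM in Adi_ASA and 11.0, 9.86 and 13.9 CPM in Ost_ASA. Every Control library was above every library of the other groups. Group means rose in the order Adi (9.25 ± 0.766), Ost (10.5 ± 2.20), Ost_ASA (11.6 ± 2.10), Adi_ASA (13.3 ± 1.64) and Control (20.3 ± 4.33), and the last step alone passed the test among these neighbours (adjusted p = 0.00794, against 0.364, 0.793 and 0.311 for the others, edgeR).

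Top2a encodes topoisomerase II alpha, which untangles DNA for chromosome segregation. Its levels were 29.0, 20.3 and 22.7 CPM in Control, 10.1, 11.8 and 11.0 CPM in Adi, and 7.31, 6.76 and 9.76 CPM in Ost. The aspirin cultures had 13.7, 12.8 and 13.2 CPM in Adi_ASA and 6.07, 8.28 and 7.79 CPM in Ost_ASA. Control was again highest, the adipogenic libraries were intermediate, and all 6 osteogenic libraries were lowest, with no overlap between these 3 sets. In both genes Control replicate 1, the library with the most reads, was above the other Control libraries.

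Cdk1, the kinase that with cyclins A and B starts mitosis, followed another order. It was at 13.8, 12.2 and 12.7 CPM in Control, 8.61, 10.9 and 9.16 CPM in Adi, and 16.5, 15.2 and 17.4 CPM in Ost. Adi_ASA had 10.3, 11.6 and 11.3 CPM and Ost_ASA 16.3, 14.5 and 14.1 CPM. Adipogenic libraries lay below Control and osteogenic libraries above it, with no overlap. Across neighbours in this order (Adi, Adi_ASA, Control, Ost_ASA, Ost) no step passed the edgeR test (adjusted p = 0.303, 0.0866, 0.0615 and 0.609), whereas Control differed from the cultures without aspirin in either medium.

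Pcna, the sliding clamp that holds DNA polymerase on its template in replication and repair, was at 45.6, 46.1 and 43.3 CPM in Control. Adi had 42.6, 41.6 and 38.0 CPM and Adi_ASA 35.1, 41.2 and 39.7 CPM. In Ost it was at 99.4, 95.9 and 90.4 CPM and in Ost_ASA at 89.6, 90.3 and 79.9 CPM. The osteogenic libraries formed a separate upper set, and the other 9 lay between 35.1 and 46.1 CPM.

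Ccnd1, whose product opens G1 by activating Cdk4 and Cdk6, varied little within groups. Its levels were 161, 160 and 163 CPM in Control, 95.2, 92.9 and 96.0 CPM in Adi and 101, 104 and 106 CPM in Adi_ASA. They were 246.2, 241.6 and 241.6 CPM in Ost and 310.2, 318.0 and 323 CPM in Ost_ASA. All 5 groups were separate from each other in the order Adi, Adi_ASA, Control, Ost, Ost_ASA, and each step except the first (adjusted p = 0.116) passed the edgeR test.

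Cdkn1a had the same order of group means as Ccnd1. It was at 223, 253 and 242 CPM in Control, 150.1, 160.3 and 156 CPM in Adi and 177, 177 and 182 CPM in Adi_ASA. It reached 463, 425 and 412 CPM in Ost and 446, 483 and 476 CPM in Ost_ASA. Here the Ost and Ost_ASA libraries overlapped, while the adipogenic, Control and osteogenic sets did not.

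**Figure D1:**
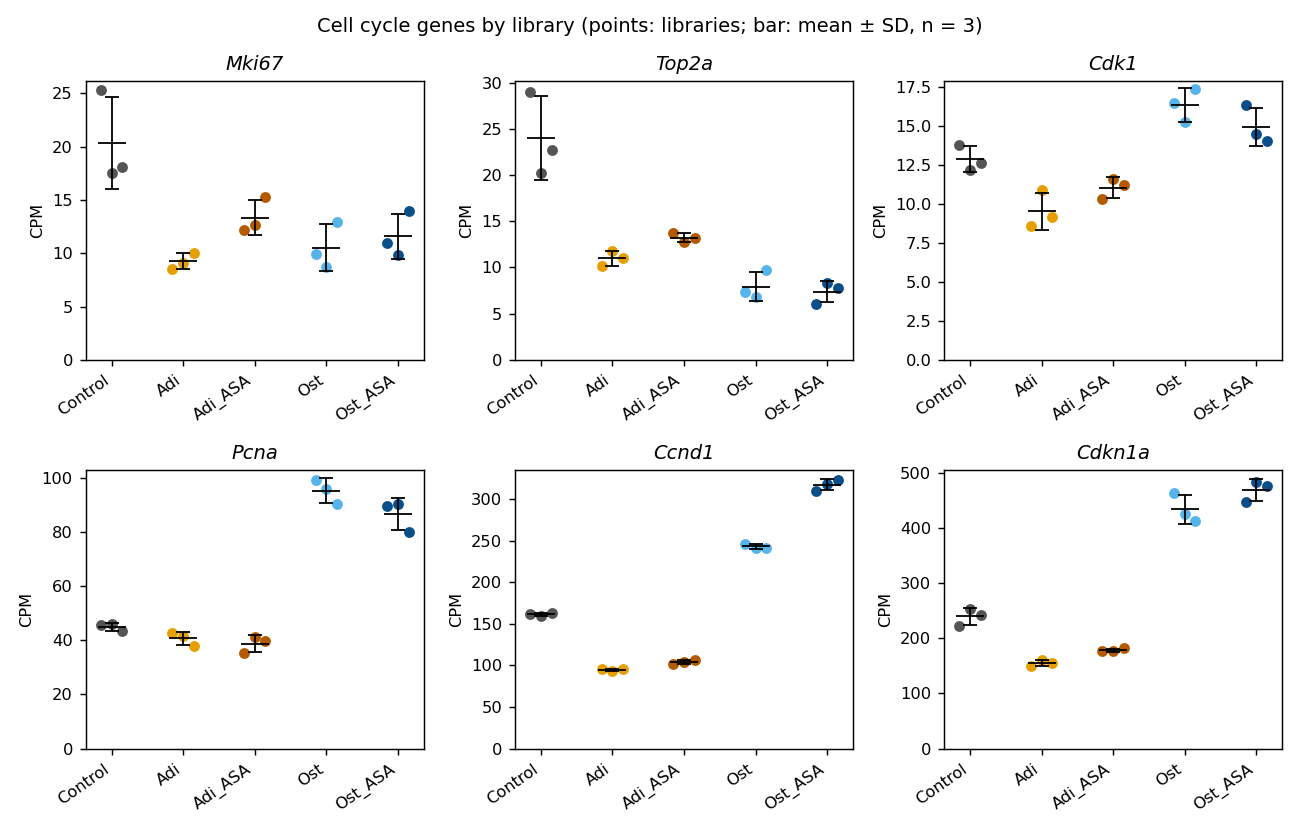
Levels of the 6 genes in CPM (vertical axis, from 0) in each of the 15 libraries by group, with 3 points per group and a bar for mean ± SD. Mki67 and Top2a are highest in Control, while Pcna, Ccnd1 and Cdkn1a are highest in the osteogenic groups (group means of 86.6 to 95.3 CPM for Pcna, 243 to 317 CPM for Ccnd1 and 434 to 468 CPM for Cdkn1a).

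Adipogenic medium was compared with untreated cells to see how the cycle genes stand during adipogenic induction. In Adi, 5 of the 6 members fell, when 24.4% of all genes tested fell, and the median log2 fold change was -0.70 for the members and -0.01 for all genes. The falls took in the mitotic genes, the G1 cyclin and the inhibitor alike. Mki67 fell to 0.455 times its Control level (log2 fold change -1.14, SE 0.17, edgeR adjusted p = 4.62e-05), and 11.9% of all genes had a change as large in either direction. Top2a fell by as much (-1.13, SE 0.14, edgeR adjusted p = 2.50e-06). Cdk1 fell less, to 0.741 times Control (-0.43, SE 0.10, edgeR adjusted p = 0.00145).

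Ccnd1 fell to 0.586 times Control (log2 fold change -0.77, SE 0.05, edgeR adjusted p = 1.85e-11) and Cdkn1a to 0.649 times (-0.62, SE 0.06, edgeR adjusted p = 2.06e-08). Pcna had a log2 difference of -0.14 (95% interval -0.29 to -0.00024, edgeR adjusted p = 0.0909), although its 3 Adi libraries were all below the Control libraries. Pcna passed when libraries were scaled by their totals alone (-0.33, edgeR adjusted p = 0.000631), a scaling that moved the median of all genes from -0.01 to -0.20. Without Control replicate 1 the falls of Mki67 and Top2a were -0.94 and -0.97 and still passed the edgeR test (adjusted p = 8.92e-05 and 1.34e-05).

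In osteogenic medium the 6 genes went in both directions. Against Control, Pcna, Cdkn1a, Ccnd1 and Cdk1 rose (4 of 6, against 34.2% of all genes) and Mki67 and Top2a fell (2 of 6, against 34.8%), so neither direction held for all members. Rises and falls were about equally common over all genes, so a split as such is not particular to these members. Pcna rose 2.12-fold (log2 fold change 1.08, SE 0.07, edgeR adjusted p = 4.64e-12) and Cdkn1a 1.81-fold (0.86, SE 0.06, edgeR adjusted p = 2.83e-11). Ccnd1 rose 1.505-fold (0.59, SE 0.05, edgeR adjusted p = 1.84e-10) and Cdk1 1.27-fold (0.35, SE 0.10, edgeR adjusted p = 0.00419). The clamp of the replication fork, the G1 cyclin and the p21 inhibitor were thus all higher in the same cultures.

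Top2a fell to 0.331 times Control (log2 fold change -1.59, SE 0.15, edgeR adjusted p = 9.37e-09) and Mki67 to 0.518 times (-0.95, SE 0.17, edgeR adjusted p = 0.000112). Without Control replicate 1 these were -1.43 and -0.76 (edgeR adjusted p = 2.53e-08 and 0.000353). Mki67, Top2a and Cdk1 are usually grouped as genes of late cell cycle phases, and the first pair fell here while Cdk1 rose. The size of the Cdk1 rise was modest among all genes, since 64.9% changed by as much.

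The cultures with aspirin were also set against Control. They share the Control libraries with the comparisons above, so the values are given side by side and not as a repeat. In Adi_ASA, 5 of 6 members were lower than Control (21.9% of all genes were): Top2a at -0.86, Ccnd1 at -0.64, Mki67 at -0.61, Cdkn1a at -0.42 and Pcna at -0.22 on the log2 scale, with edgeR adjusted p from 3.92e-10 (Ccnd1) to 0.0134 (Pcna). Cdk1 was at -0.22 and did not pass (edgeR adjusted p = 0.0866), but passed with scaling by library totals (-0.35, edgeR adjusted p = 0.0082). The Pcna call was lost without Adi_ASA replicate 1 (-0.15, edgeR adjusted p = 0.103). In Ost_ASA, 3 of 6 were higher than Control (34.5% of all genes), with Ccnd1 at 0.97, Cdkn1a at 0.97 and Pcna at 0.94, and Top2a (-1.70) and Mki67 (-0.81) were lower (2 of 6, against 34.8%). Cdk1 was at 0.21 (edgeR adjusted p = 0.0615), and passed without Control replicate 1 (0.27) or Ost_ASA replicate 3 (0.26).

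**Figure D2:**
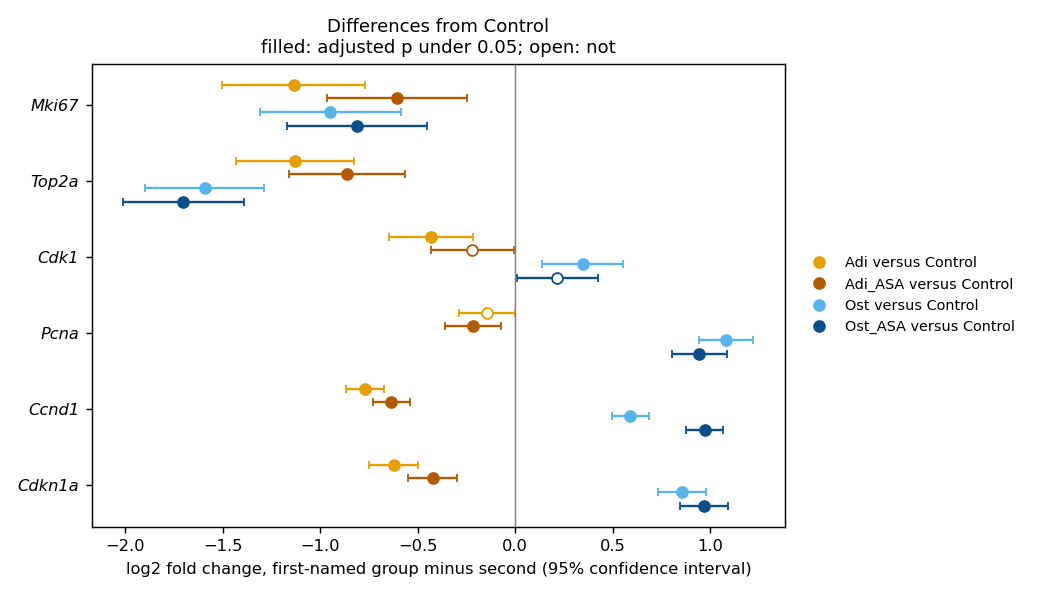
Log2 fold change from Control (horizontal axis) with 95% confidence interval for each gene in Adi, Adi_ASA, Ost and Ost_ASA, with filled points where the edgeR adjusted p was under 0.05. Mki67 and Top2a lie left of 0 in all 4 cultures. Cdk1, Pcna, Ccnd1 and Cdkn1a lie left of 0 in adipogenic and right of 0 in osteogenic medium. Open points are Pcna in Adi and Cdk1 in Adi_ASA and Ost_ASA.

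The media were then compared directly. Without aspirin, Cdkn1a, Ccnd1, Pcna and Cdk1 were lower in Adi than in Ost (4 of 6, against 33.5% of all genes), and Top2a was higher (1 of 6, against 33%). The largest differences were those of Cdkn1a, 2.79-fold higher in Ost (log2 Adi minus Ost -1.48, SE 0.06, edgeR adjusted p = 3.86e-15), and Ccnd1, 2.57-fold higher in Ost (-1.36, SE 0.05, edgeR adjusted p = 1.90e-16). Pcna was at -1.22 and Cdk1 at -0.78. Mki67 did not separate the media (-0.19, 95% interval -0.56 to 0.19, edgeR adjusted p = 0.364), and its libraries overlapped.

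The group means of Adi_ASA and Ost_ASA use none of those libraries, although the spread in the test was pooled over all 5 groups. Their comparison gave the same sorting. Cdkn1a, Ccnd1, Pcna and Cdk1 were lower in Adi_ASA (4 of 6, against 32.8% of all genes) at -1.39, -1.61, -1.16 and -0.43, and Top2a was higher (1 of 6, against 32.9%) at 0.84 (SE 0.15, edgeR adjusted p = 5.65e-05). Mki67 was at 0.20 (95% interval -0.16 to 0.57, edgeR adjusted p = 0.311). The difference of Top2a without aspirin was smaller, at 0.46 (SE 0.15, edgeR adjusted p = 0.0102), and did not pass without Ost replicate 1 (0.40, adjusted p = 0.0501) or Ost replicate 2 (0.36, adjusted p = 0.0581), nor with scaling by library totals (0.31, adjusted p = 0.0694).

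Aspirin was added to adipogenic medium to see whether it changes the induced state. By edgeR, 0 of the 6 members passed in Adi_ASA against Adi, when 4.34% of all genes did, and 3 of 6 had an unadjusted p under 0.05, as did 2653 of the 15543 genes. The libraries with aspirin lay above those without in Mki67, Top2a, Ccnd1 and Cdkn1a, without overlap (4 of 6, against 12.1% of all genes). Mki67 had a mean of 13.3 ± 1.64 CPM with and 9.25 ± 0.766 CPM without aspirin, a log2 difference of 0.53 (SE 0.17, 95% interval 0.16 to 0.90, edgeR adjusted p = 0.113). Cdkn1a had a difference of 0.20 (SE 0.06, edgeR adjusted p = 0.0623) and Ccnd1 of 0.14 (SE 0.05, edgeR adjusted p = 0.116).

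Top2a (0.27, 95% interval -0.04 to 0.57) and Cdk1 (0.21, 95% interval -0.0035 to 0.43) had edgeR adjusted p of 0.374 and 0.303, and Pcna was at -0.07 (95% interval -0.22 to 0.07). The calls here turned on the setting. DESeq2 called Cdkn1a (adjusted p = 0.0319), a fit of the Adi and Adi_ASA libraries alone called Mki67 and Cdkn1a (edgeR adjusted p = 0.0132 and 0.0277), and scaling by library totals called Mki67, Ccnd1 and Cdkn1a (edgeR adjusted p = 0.0499, 0.0179 and 0.0139).

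Aspirin in osteogenic medium raised Ccnd1. The Ost_ASA libraries (310.2 to 323 CPM) were all above the Ost libraries (241.6 to 246.2 CPM), a 1.305-fold rise (log2 fold change 0.38, SE 0.05, edgeR adjusted p = 3.81e-05), and 14.8% of all genes changed by as much. It was the single member called (1 of 6, against 2.34% of all genes that rose), and it passed under all 13 alternatives, with log2 fold changes from 0.36 to 0.40. Libraries did not overlap in 2 of 6 members, Ccnd1 and Pcna, against 18.5% of all genes. Pcna was at -0.14 (95% interval -0.27 to -0.0016, edgeR adjusted p = 0.329).

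The other genes differed little beside the spread of their libraries. Cdkn1a had a log2 difference of 0.11 (95% interval -0.01 to 0.23, edgeR adjusted p = 0.399) and Cdk1 of -0.13 (95% interval -0.34 to 0.08, edgeR adjusted p = 0.609). For Mki67 (0.14, 95% interval -0.23 to 0.50) and Top2a (-0.11, 95% interval -0.42 to 0.21) the intervals leave room for changes of either sign.

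The aspirin effects in the media were tested against each other, with no library in common. The difference passed for Ccnd1 (1 of 6, against 2.83% of all genes), with a log2 effect of 0.14 in adipogenic and 0.38 in osteogenic medium and a difference of -0.25 (SE 0.06, 95% interval -0.38 to -0.11, edgeR adjusted p = 0.0377). This call was not firm. It was lost under 15 of 19 alternatives, among them the omission of any Adi, Adi_ASA or Ost library and of Ost_ASA replicates 2 or 3, with adjusted p up to 0.174 and differences of -0.26 to -0.17. For Mki67, Top2a and Cdk1 the difference was 0.39, 0.38 and 0.34 (edgeR adjusted p = 0.547, 0.470 and 0.271).

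**Figure D3:**
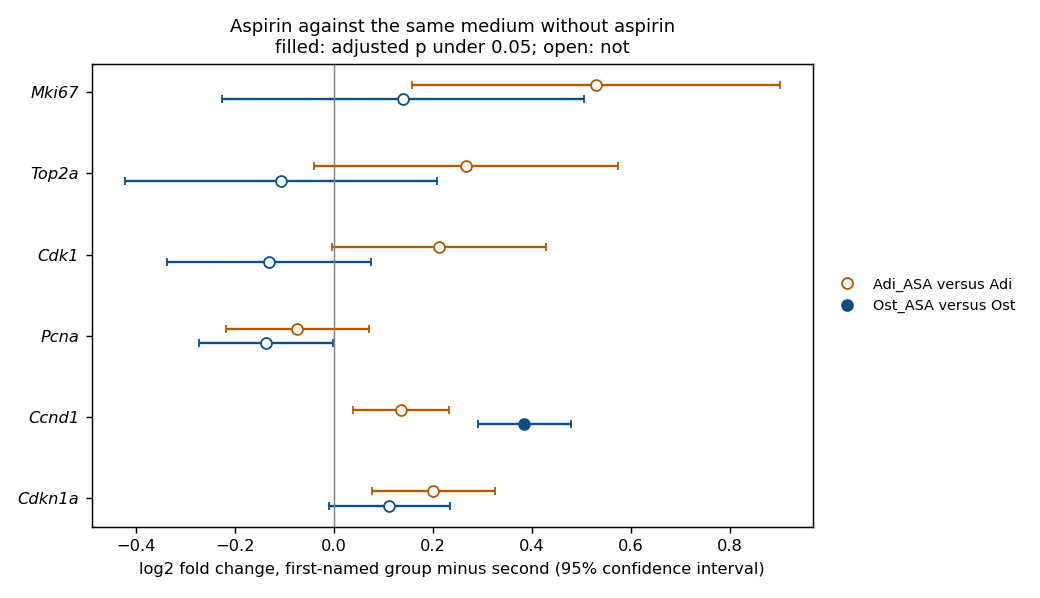
Log2 fold change with aspirin (horizontal axis) and 95% confidence interval for each gene in adipogenic (Adi_ASA versus Adi) and osteogenic medium (Ost_ASA versus Ost), filled where the edgeR adjusted p was under 0.05. The Ccnd1 point in osteogenic medium, at 0.38, is the filled one.

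Ratios of reads to Mki67 within a library need no scaling between libraries. Between genes such a ratio depends on gene length, so differences between groups are read. With 3 libraries against 3, the exact permutation test (two-sided) cannot go below p = 0.1, and over the 40 comparisons made that value is 0.138 after adjustment. The log2 ratio of Top2a to Mki67 was 0.24 ± 0.07 in Control and 0.25 ± 0.12 in Adi, a difference of 0.0022 (exact permutation p = 1). In Ost it was -0.40 ± 0.04, below every Control and Adi library (difference from Control -0.65, exact permutation p = 0.1). Top2a and Mki67 were thus lower by like amounts in Adi, and Top2a was lower relative to Mki67 in Ost.

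The ratio of Pcna to Mki67 separated Control, Adi and Ost from each other. It was 1.80, 2.62 and 2.40 reads of Pcna per read of Mki67 in Control, 4.99, 4.56 and 3.78 in Adi and 10.1, 11.0 and 6.98 in Ost. These are differences from Control of 0.97 and 2.03 on the log2 scale (exact permutation p = 0.1 for each, with no overlap). With aspirin in adipogenic medium it was 2.88, 3.27 and 2.61, lower than every Adi library by a mean of 0.60 on the log2 scale (exact permutation p = 0.1). These Adi_ASA values overlapped Control (difference 0.37, exact permutation p = 0.2). Against Adi, Pcna itself was at -0.07 and Mki67 at 0.53, and neither passed the edgeR test. The ratios of Cdkn1a and Ccnd1 to Mki67 were lower there too, at -0.33 and -0.39, without overlap (exact permutation p = 0.1 for each). All these ratios share Mki67 as denominator, so they are not separate results. Cdkn1a and Ccnd1 themselves were at 0.20 and 0.14 against Adi. The ratios of Top2a and Cdk1 were at -0.26 and -0.31, with overlap (exact permutation p = 0.2 for each). Against Control, the Adi_ASA ratios of Cdkn1a and Ccnd1 overlapped. Cdkn1a to Mki67 was 1.41-fold higher in Adi and 3.50-fold higher in Ost than in Control, and Ccnd1 to Mki67 1.27-fold and 2.91-fold, each without overlap (exact permutation p = 0.1). In Adi, Cdkn1a and Ccnd1 had themselves fallen from Control (-0.62 and -0.77), and Mki67 had fallen more (-1.14). In all 5 ratios, Ost and Ost_ASA overlapped.

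**Figure D4:**
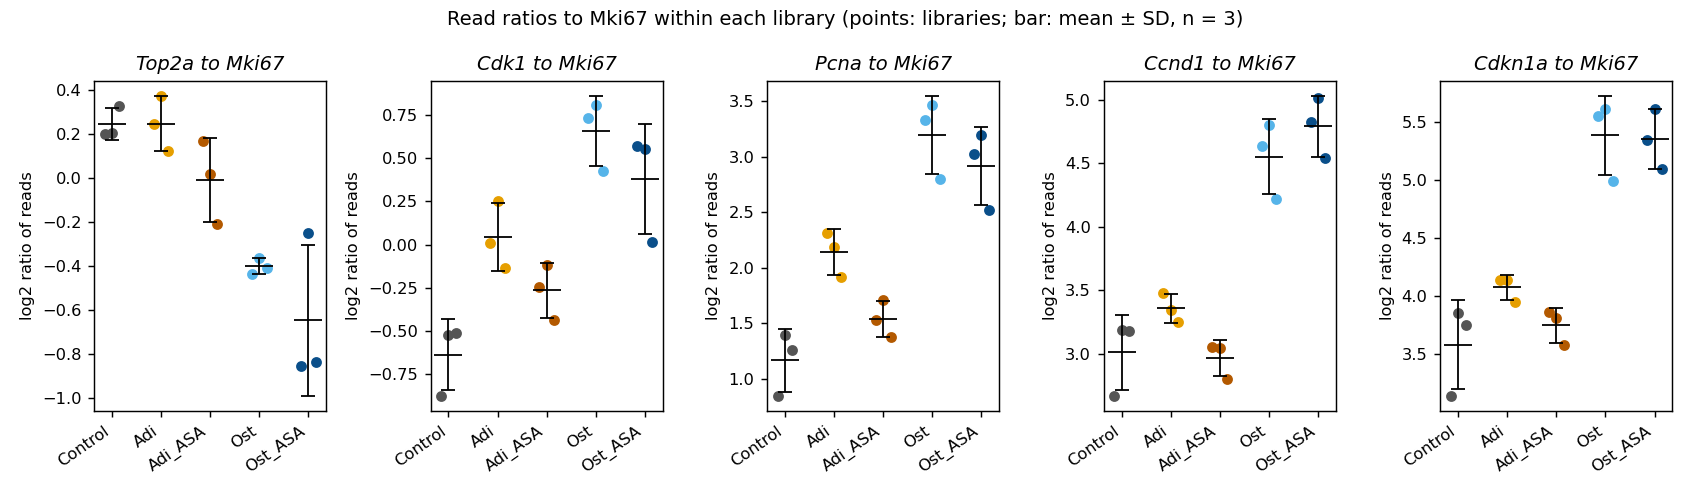
Log2 ratio of reads of each gene to reads of Mki67 in the same library (vertical axis, a scale of its own in each panel), 3 points per group with mean ± SD. Pcna, Ccnd1, Cdkn1a and Cdk1 are highest against Mki67 in the osteogenic groups, and Top2a is lowest there.

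Likeness between members was measured over the 5 group means, as the root mean square difference of log2 CPM profiles centred on their own mean, among 11435 other genes with at least 5 CPM in a group. Cdkn1a ranked 3 in nearness to Ccnd1 (0.11), and Ccnd1 ranked 21 for Cdkn1a. Pcna ranked 122 for Cdkn1a (0.18). Mki67 ranked 703 for Top2a and Top2a 1937 for Mki67 (0.36). Cdk1 ranked 4867 for Mki67 and 7288 for Top2a (0.46 and 0.77), farther than it lay from Pcna (0.33). Pcna still ranked only 4709 for Cdk1, so many other genes lay nearer to Cdk1. The nearest profiles to Mki67 and Top2a were ENSRNOG00000003388 (0.03) and ENSRNOG00000020695 (0.03). These distances rest on 5 means and describe levels alone.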

How the data were processed

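RNA sequencing of 15 libraries gave 1 table, whose values are raw read counts per gene, deposited by the authors without normalization. The submitters' processing notes name build Rnor_6.0 and the tools DESeq 1.18.0, HTSeq 0.9.1 and HISAT2 2.0.4. How these were set, the strand setting, the annotation and the handling of reads from overlapping genes: not given in the sources used here. Column names matched sample titles, which gave group and replicate.

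The 6 members and all lists were chosen with earlier results of these data known. Symbols are those of the rule that set the members. RefSeq's gene table (GRCr8) held no Ensembl identifier, so 8 symbol lists (other cell cycle genes, p53 targets, markers of stromal, haematopoietic and endothelial cells) could not be matched and were not tested.

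Counts were fitted in edgeR 4.0.16 (R 4.3.3): filterByExpr over the 5 groups, TMM factors (0.911 to 1.07), and 1 robust quasi-likelihood model of group means over all 15 libraries, with 9 contrasts and Benjamini-Hochberg adjustment over 15543 genes. An SE is the log2 fold change divided by the square root of F. In counts simulated for Adi_ASA against Adi, the test recovered most of the largest changes set. Recovery of smaller changes, of the size seen with aspirin here, is not given. No pair of replicates was a duplicate (their chi-square was 5.41 to 13.5 times its degrees of freedom), so each library was counted as 1 replicate. This check cannot tell separate rats from separate dishes. Alternatives were RLE factors, library totals, 2 filters, DESeq2 1.42.0, fits of the compared groups alone, a replicate block and leaving out each library. The named genes are the 6 members and the nearest profiles of the first pair (0.01 CPM was added before logs), since unpaired identifiers were limited to 2. Reads carry no molecular identifiers here, so counting errors cover counting only.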

Additional observations from a re-analysis of the deposited data

Results flagged for a closer look

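Ccnd1 differed between the media in its response to aspirin by a test of the difference itself: -0.25 on the log2 scale, as the effect in adipogenic medium (Adi_ASA minus Adi, 0.14) minus that in osteogenic medium (Ost_ASA minus Ost, 0.38), with an edgeR adjusted p of 0.0377. All 3 libraries with aspirin were above all 3 without it in either medium. The call was lost under 15 of 19 alternatives, with adjusted p from 0.000751 (DESeq2) to 0.174 (edgeR with library totals).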

How the results depend on the processing

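Over all comparisons, 709 of the values of single genes under an alternative stayed on their side of the threshold with their direction, 19 lost a call, 10 gained a call, and 0 called values changed sign. The count of members called differed as follows. Genes higher in Adi than in Ost went from 1 to 0 with library totals, and were 0 to 1 over omitted libraries. Members called higher with aspirin in adipogenic medium went from 0 to 3 with library totals, 1 with DESeq2 and 2 in the fit of the groups compared. Over all genes, the count called higher went from 387 to 753, 407 and 410 in these settings. The call of Ccnd1 for the difference of the aspirin effects went to 0 with library totals, with no filter on low counts, in the fit of the groups compared and with the replicate block, and was 0 to 1 over omitted libraries. Smaller shifts were from 5 to 6 members lower than Control with library totals in Adi and in Adi_ASA, from 5 to 4 in Adi_ASA without Adi_ASA replicate 1, and from 3 to 4 higher in Ost_ASA without Control replicate 1 or Ost_ASA replicate 3. The cause was not tested.

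Over all genes, replicate numbers did not pair the libraries. The correlation of deviations from group means was -0.07 to 0.04 over 30 pairs of the same number and -0.08 to 0.08 over 60 others. Mki67 by itself was highest in replicate 3 in Adi, Adi_ASA, Ost and Ost_ASA, but not in Control. With the replicate block, Ccnd1 had -0.25 for the difference of the aspirin effects (edgeR adjusted p = 0.0604), and no other call of a member changed. Mki67 in Adi_ASA against Adi was then at 0.53, with an edgeR adjusted p of 0.0501 (0.113 without the block).

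Scaling by library totals moved the median log2 change of all genes to -0.20 in Adi and -0.14 in Adi_ASA against Control, and to -0.15 in Adi against Ost. Genes called higher and lower were then 2168 and 6316 (3810 and 3793 with TMM) for Adi against Control, 2304 and 5209 (3502 and 3397) for Adi_ASA against Control, 4106 and 6440 (5129 and 5207) for Adi against Ost, 753 and 168 (387 and 288) for Adi_ASA against Adi, and 402 and 184 (186 and 254) for the difference of the aspirin effects. The count over all genes fell to between 284 and 424 (675 with all libraries) for Adi_ASA against Adi without Adi replicates 2 or 3 or any Adi_ASA library. It fell to 335, 348 and 357 (564) for Ost_ASA against Ost without Ost replicates 1 or 2 or Ost_ASA replicate 3, and to 288 (440) for the difference without Adi_ASA replicate 3. With 129 to 701 reads per library, Mki67, Top2a and Cdk1 allowed less precise differences than Ccnd1 or Cdkn1a.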

Other observations

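The genes differed in how evenly they were expressed within a group. The coefficient of variation of CPM over 3 libraries was 1.09% to 2.28% for Ccnd1, close to the 1.19% to 2.41% that counting reads alone gives at its depth. For Mki67 it was 8.29% to 21.3%, against 4.69% to 7.69% from counting, and for Top2a 3.58% to 20.1%, against 4.32% to 7.81%. Cdkn1a, with counting errors of 0.98% to 1.88%, varied by 1.504% to 6.46%. The widest spreads of Mki67 were in Control (21.3%), where replicate 1 was high, and in Ost (20.9%), where replicate 3 was high in both Mki67 and Top2a (12.95 and 9.76 CPM). With 3 libraries per group these spreads are themselves imprecise, and no test of them was made.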
